A study of Mus musculus with 502 samples.

Results

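The regions described here are the K562 silencers that lie far from every silencer of 2 other human cell lines, 293T and LNCap. A silencer was taken when it lay on chromosomes 1 to 22, was 50 to 300 bp wide, and had no 293T or LNCap silencer within 10 kb of either edge. Of 134159 usable K562 silencers, 125516 met the chromosome and width limits, and 16902 of these (13.5%, 95% Wilson interval 13.3 to 13.7) also met the distance limit. The 16902 are called isolated silencers below, and the other 108614 that met the first 2 limits are called the remaining K562 silencers. The choice used the positions of all 3 lists, so the distances themselves are a description of how the regions were chosen and not a finding.

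The silencers come from Ss-STARR-seq, a reporter assay in which genomic fragments are cloned into a plasmid, transfected, and read out by comparing RNA transcribed from it with the input plasmid DNA. K562 cells come from a chronic myeloid leukaemia and have erythroid features. LNCap cells come from a prostate cancer that responds to androgen, and 293T cells from embryonic kidney, with the SV40 large T antigen added. The protocol names 1 serum-containing medium for all 3 lines, and the labels give no drug, genotype or time point. The labels list 180 output RNA libraries for K562, 179 for LNCap and 102 for 293T, beside 40 of LNCap input DNA and 1 of 293T input DNA; no K562 input is among the 502. All 502 are labelled as mouse, although the lines and the build, hg38, are human.

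A silencer is a stretch of DNA that lowers transcription from a promoter it is joined to. Silencers are bound by repressor proteins, of which REST, which holds neuronal genes off in other tissues, is the textbook case, and these recruit corepressors such as histone deacetylases or Polycomb complexes. The same stretch can be inactive, or act as an enhancer, in a cell that lacks the repressor. A plasmid assay measures the fragment outside its own chromosome, so it does not show whether the stretch is in open or closed chromatin in the cell.

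The values used here are 1 list per line, and values of the single libraries were not analysed here. No test across samples was therefore made, and no p-value is given. Shares carry 95% Wilson intervals, which cover counting error only, and values over the 22 autosomes show how far a difference recurs along the genome. The read depth behind a silencer is unknown. Silencers missed by the assay in 293T or LNCap and silencers inactive in those lines look the same in the lists, so isolation in these lists does not measure activity in K562 alone.

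Isolated silencers formed the far tail of a continuous distribution of distances, with no break at 10 kb. Of the 125516 K562 silencers, 24087 overlapped a silencer of another line and 18216 lay up to 500 bp from one. The distance of isolated silencers to the nearest silencer of another line had a median of 14862 bp, quartiles of 12000 and 20100 bp, and a range of 10001 to 1169550 bp. Most were thus only moderately far: 275 lay over 50 kb away and 66 over 100 kb. The nearest silencer belonged to LNCap in 52.1% (51.4 to 52.9) and to 293T in 47.8% (47.0 to 48.5), and was equally far in 22 cases. The lists themselves stand in nearly the same proportion, with 131665 LNCap and 119180 293T silencers on the autosomes.

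**Figure D1:**
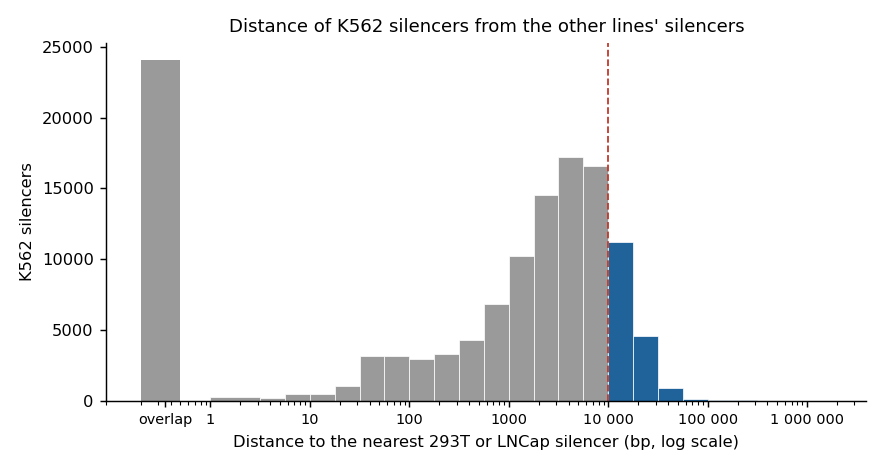
Number of K562 silencers (vertical axis) by distance to the nearest 293T or LNCap silencer (horizontal axis, bp, log scale, with overlapping silencers as a separate bar); blue bars are isolated silencers and the dashed line marks 10 kb. The 24087 overlapping silencers stand apart, and the isolated silencers are the falling right side of the main hump, with a median of 14862 bp.

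Just inside the limit, a silencer on chromosome 1 (210677349 to 210677399, score 2.1) lay 10001 bp from the nearest 293T silencer. Next to it in distance came silencers on chromosome 11 (28866331 to 28866381, score 2.3) and chromosome 12 (110940051 to 110940101, score 2.0), each 10002 bp from LNCap. Just outside, 27 silencers lay at exactly 10000 bp, among them 1 on chromosome 1 (39728701 to 39728751, score 2.0) and 2 on chromosome 11 (58071001 to 58071051, score 2.2, and 103923051 to 103923101, score 2.0). The 2361 isolated silencers within the first kb past the limit had a mean score of 2.33, and the 2782 remaining silencers in the last kb before it had a mean of 2.34. Another K562 silencer lay within 10 kb of 57.8% (55.8 to 59.8) of the former and 63.9% (62.1 to 65.7) of the latter.

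Distance from one line went with distance from the other. Of all 125516 K562 silencers, 39.5% lay over 10 kb from 293T and 29.4% over 10 kb from LNCap. Among those far from LNCap, 45.8% (45.3 to 46.4) were also far from 293T, against 36.9% (36.6 to 37.2) of those near LNCap. LNCap silencers chosen by the same rule were as frequent in their own list, 17312 of 128675 (13.5%, 13.3 to 13.6), while 293T silencers were isolated more often, 22739 of 117517 (19.3%, 19.1 to 19.6). The 3 lists enter each other's rule, so these shares are not independent of one another.

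The authors' activity score was lower among isolated silencers than among the remaining K562 silencers. The score was not used to choose them; it starts at 2 in each list, has 1 decimal, and its scale is not stated. Scores of 2.0 or 2.1, the lowest deposited, made up 44.4% of isolated silencers (43.7 to 45.2) and 39.3% of the remaining ones (39.0 to 39.6), a difference of 5.11 percentage points (interval 4.31 to 5.91). Scores of 3 and above made up 7.35% (6.96 to 7.75) and 10.4% (10.2 to 10.6). At 1 decimal both sets had the same median, 2.2, and the same upper quartile, 2.5, while the lower quartile was 2.0 and 2.1. Scores of 2.5 and above made up 25.1% (24.4 to 25.7) and 30.0% (29.8 to 30.3), so the shift was spread over a narrow distribution.

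The same direction was seen along the genome. On 22 of 22 autosomes the share of scores of 2.0 or 2.1 was higher among isolated silencers: its lowest, median and highest values were 41.0%, 44.6% and 49.5%, against 37.7%, 39.5% and 42.6% among the remaining silencers. The difference ranged from 2.5 to 8.76 points, with a median of 5.56. The mean score was lower on 22 of 22 autosomes, and the share of scores of 3 and above was lower on 21 of 22. The exception was chromosome 22, where 9.35% of isolated and 8.09% of remaining silencers scored 3 or more. Autosomes are parts of the same list and are not replicates.

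Most of this difference came from silencers that overlapped or adjoined those of other lines, not from a step at 10 kb. The share of scores of 2.0 or 2.1 was 31.2% (30.6 to 31.8) in overlapping silencers, 37.5% (36.8 to 38.2) up to 500 bp away, and 42.8% (41.7 to 43.9) from 500 to 1000 bp. Beyond that it moved little, with 43.5% (42.8 to 44.2) from 5 to 10 kb, 43.8% (42.8 to 44.9) from 10 to 15 kb and 45.1% (43.5 to 46.6) from 15 to 20 kb. Set against remaining silencers over 5 kb from another line, isolated silencers differed by 0.949 points, with an interval of -0.0668 to 1.96. For scores of 3 and above the difference to that set was -0.954 points (-1.50 to -0.404). Low scores were therefore common to K562 silencers more than 500 bp from another line's silencer, and were not particular to those beyond 10 kb.

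**Figure D2:**
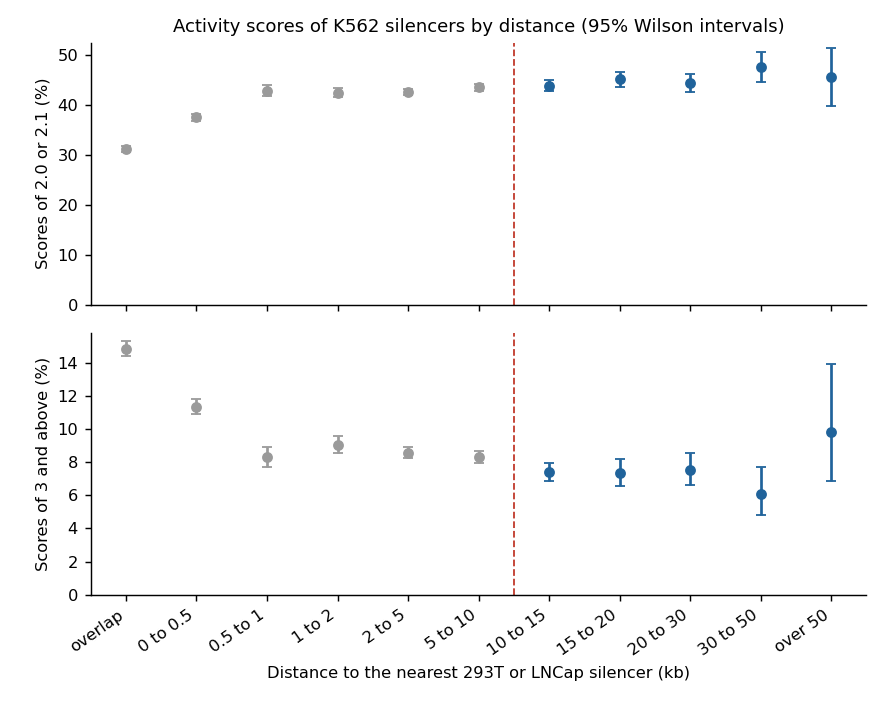
Share of K562 silencers with the lowest scores, 2.0 or 2.1 (upper panel), and with scores of 3 and above (lower panel), by distance to the nearest 293T or LNCap silencer in kb; points are shares, bars 95% Wilson intervals, blue points isolated silencers, and the dashed line marks 10 kb. Most of the change lies between overlapping silencers (31.2% and 14.8%) and those at 500 to 1000 bp (42.8% and 8.29%).

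Read the other way, the share of K562 silencers that were isolated fell as the score rose. It was 14.9% (14.6 to 15.3) for scores of 2.0 and 2.1, 13.4% (13.1 to 13.8) for 2.2 to 2.4, 12.3% (11.9 to 12.7) for 2.5 to 2.9 and 10.1% (9.57 to 10.7) for 3.0 to 3.9. Among the 1611 scores of 4.0 to 4.9 it was 8.81% (7.53 to 10.3), and among the 404 finite scores of 5 and above 7.92% (5.67 to 11.0). The intervals of the first 4 classes do not overlap, whereas those of the last 3 do.

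Infinite scores went the opposite way. The list holds 30 K562 silencers with an infinite score inside the chromosome and width limits, and 11 of them (36.7%, 21.9 to 54.5) were isolated, while 2 overlapped a silencer of another line. All 30 were 50 bp wide. What an infinite score stands for is not given in the sources used here, and these silencers were left out of every share of scores above. The 11 lay on 7 chromosomes at 10556 to 27180 bp from another line's silencer, and 7 of them had no other K562 silencer within 10 kb. Those farthest out were on chromosome 1 (79503101 to 79503151, 27180 bp) and chromosome 14 (52030501 to 52030551, 26550 bp); they were picked out after their values were seen.

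Isolated silencers were mostly of the shortest width, 50 bp. Exactly 50 bp was the width of 63.4% of them (62.7 to 64.1) and of 59.6% (59.3 to 59.9) of the remaining silencers. A width over 200 bp was found in 603, which had fewer high scores than the others: 3.65% (2.42 to 5.46) of these scored 3 or more, against 7.63% (7.14 to 8.15) of the 50 bp ones. The width difference to the remaining silencers came from overlapping ones, of which 47.6% (46.9 to 48.2) were 50 bp wide. Without them the remaining share was 63.0%. Within silencers of exactly 50 bp the score difference was 5.35 points, close to that over all widths. The isolated silencers together covered 1335 kb.

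Isolated silencers also had fewer silencers of their own line around them, which the rule did not ask for. Another K562 silencer lay within 10 kb of 52.4% (51.7 to 53.2) of isolated and 72.4% (72.1 to 72.7) of remaining silencers. The median gap to the nearest K562 silencer was 9100 bp and 4010 bp. The share was lower on 22 of 22 autosomes, with differences (isolated minus remaining) from -28.2 to -15.1 points. Over the 22 autosomes the density of K562 silencers and that of the other lists had a Spearman correlation of 0.94, and the part of local density in this difference was not tested. The share fell with distance also within the isolated silencers, from 55.1% (54.0 to 56.1) at 10 to 15 kb to 36.7% (31.2 to 42.6) beyond 50 kb.

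Very close K562 neighbours were likewise fewer. A K562 silencer within 500 bp was found for 18.1% (17.6 to 18.7) of isolated silencers, 26.2% (25.9 to 26.5) of remaining ones, and 19.8% (19.3 to 20.4) of those at 5 to 10 kb from another line. A gap of exactly 50 bp separated 10.3% (9.89 to 10.8) of isolated silencers from their nearest K562 neighbour. Isolated silencers with such a close neighbour scored higher than solitary ones. Scores of 3 and above made up 10.1% (9.10 to 11.2) of the 3065 with a neighbour within 500 bp, 6.88% (6.26 to 7.56) of those with one at 500 bp to 10 kb, and 6.63% (6.10 to 7.19) of the 8030 with none within 10 kb. Among the remaining silencers the same contrast was 13.4% against 8.92%. In both sets, solitary silencers thus had fewer scores of 3 and above than those with a neighbour within 500 bp. Among isolated silencers, the solitary share was close to that with a neighbour at 500 bp to 10 kb, with overlapping intervals. It did not fall further with solitude: of 103 isolated silencers with none within 100 kb, 12.6% (7.53 to 20.4) scored 3 or more. Among silencers with none within 10 kb, the isolated ones still had fewer scores of 3 and above than the remaining ones.

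**Figure D3:**
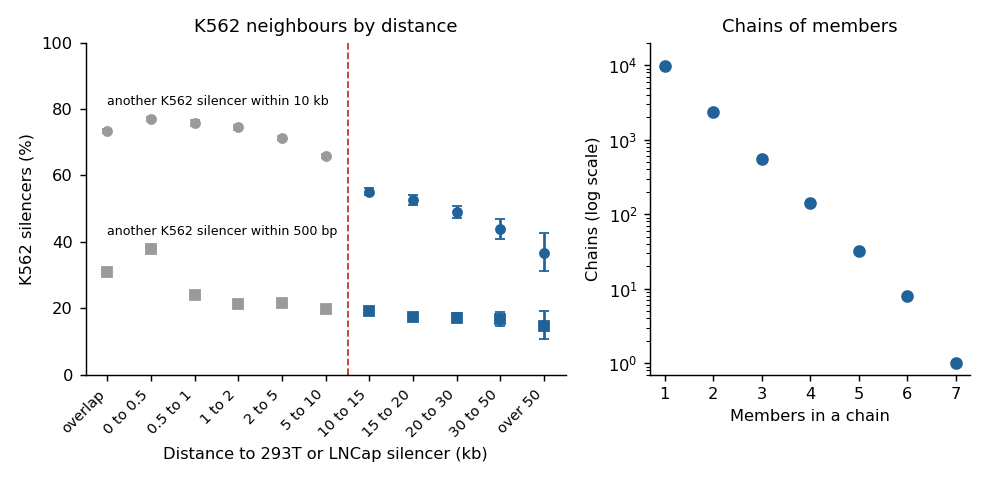
Left, share of K562 silencers with another K562 silencer within 10 kb (circles) or 500 bp (squares) by distance to the nearest 293T or LNCap silencer in kb, with 95% Wilson intervals, blue for isolated silencers and a dashed line at 10 kb. Right, number of chains (log scale) by the number of isolated silencers in them. Of the silencers, 9777 were chained to no other isolated silencer, and 1 chain held 7.

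Isolated silencers sometimes followed each other. A chain is here a run of isolated silencers up to 10 kb apart with no other K562 silencer between. In all, 9777 isolated silencers were chained to no other, and 7125 (42.2%) were in 3082 chains of 2 or more. Fewer than the 9777, namely 8037, had no K562 silencer of any kind within 10 kb. Chains of 5 or more numbered 41: 32 of 5, 8 of 6 and 1 of 7. A chain of this kind is a stretch in which K562 has repeated calls and neither other list has any.

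The longest chain lay on chromosome 1 (7584951 to 7602251), where 7 silencers spanned 17300 bp. In order along the chromosome their scores were 2.8, 2.5, 2.5, 2.1, 2.1, 2.5 and 2.0, and LNCap and 293T had their nearest silencers 14132 and 38462 bp away. The chain on chromosome 11 (113766515 to 113783401) held 6 with scores of 2.0, 2.3, 2.3, 2.6, 2.6 and 2.4, and its nearest other silencer was from 293T at 11450 bp. The chain on chromosome 6 (25973045 to 26001951) was the widest named, with 6 silencers of 50 or 100 bp over 28906 bp and scores of 2.4, 2.0, 3.5, 2.2, 2.4 and 2.0. Of the 19 silencers in these 3 chains, 1 scored 3 or more, beside 7.35% of all isolated silencers. The median scores of the chains were 2.5, 2.35 and 2.3, beside 2.2 for all isolated silencers. Chains of equal size were ranked by median score, which favours higher medians here.

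The tightest was on chromosome 13 (105351739 to 105355741), with 6 silencers in 4002 bp and scores of 2.2, 3.6, 2.1, 2.5, 2.4 and 2.0. Its neighbours of the other lines were 12788 bp (293T) and 15160 bp (LNCap) away. The next 3 chains tie in size and median score (2.15), and 2 of them are also on chromosome 13 (98924873 to 98932299, and 106153401 to 106171231). The third lies on chromosome 15 (32979551 to 32984001), where 6 silencers of 50 bp each fell within 4450 bp. Chromosome 13 held 3 of the 7 chains named, and 631 of the 16902 isolated silencers. The 7 were picked by size and median score, and the spread of the other chains over chromosomes is not given here.

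**Figure D4:**
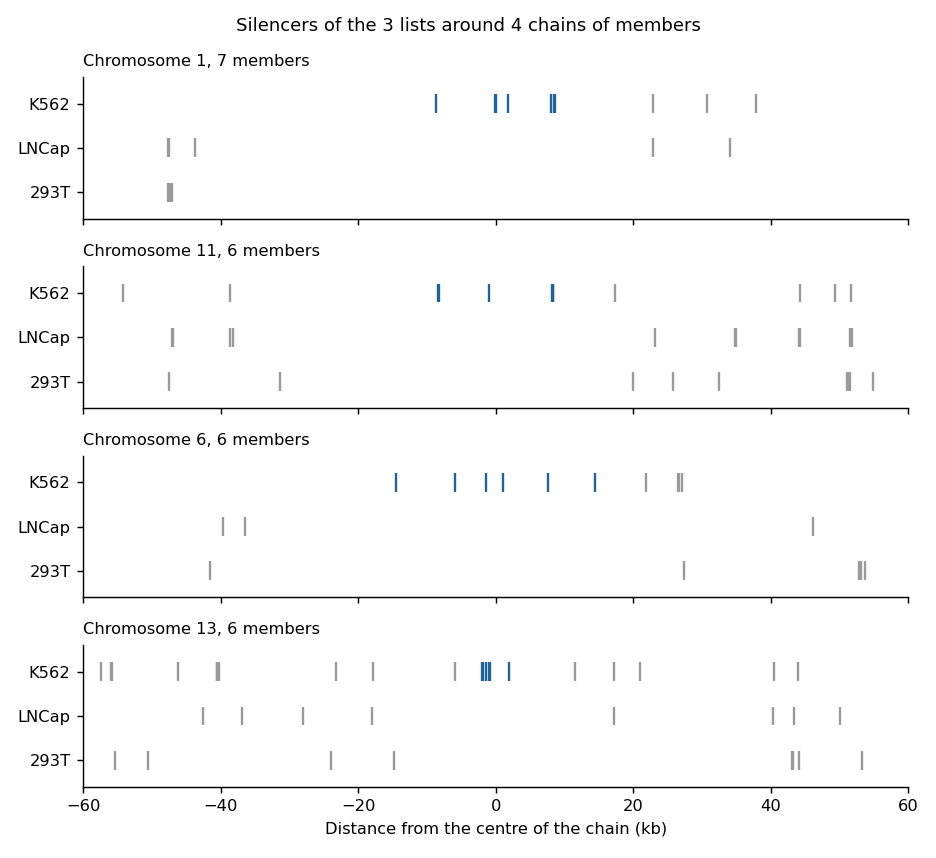
Positions of the silencers of the 3 lists (rows) within 60 kb of the centre of 4 chains, in kb from the centre; each tick is 1 silencer, with the isolated K562 silencers of the chain in blue and all others in grey. In each panel the 6 or 7 blue ticks sit in a stretch in which the LNCap and 293T rows are empty for over 10 kb on both sides.

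Stretches free of both other lines were common, and most held no isolated K562 silencer. Between neighbouring 293T or LNCap silencers there were 40112 stretches of over 20 and up to 200 kb on the autosomes. Of these, 11056 (27.6%) held at least 1 isolated K562 silencer in their inner part, 7301 held 1, 2505 held 2 and 1250 held 3 or more. Their inner parts, 10 kb or more from either end, carried 26.9 isolated silencers per Mb, and those of all 40344 stretches over 20 kb carried 21.6 per Mb. Outside the inner parts of all these stretches the remaining K562 silencers reached 51.9 per Mb. K562 silencers were therefore sparser where the other lists were empty. The fullest stretch, 109953 bp on chromosome 9 (115131073 to 115241026), held 9. By the same count, LNCap silencers reached 27.2 per Mb and 293T silencers 33.04 per Mb in the stretches left by the other lines.

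The chromosomes differed widely in how many of their K562 silencers were isolated. The share ran from 4.10% (3.59 to 4.69) on chromosome 19, or 204 of 4970, to 17.4% (15.5 to 19.5) on chromosome 21, or 249 of 1431, with a median over autosomes of 13.9%. After chromosome 19 the lowest shares were on chromosomes 17 (8.03%, 7.30 to 8.83) and 14 (11.1%, 10.2 to 12.1). After chromosome 21 the highest were on chromosomes 6 (16.5%, 15.6 to 17.4) and 5 (16.4%, 15.6 to 17.3). Chromosome 19, the most gene-dense human chromosome, was also the lowest for isolated silencers of LNCap (4.86%) and of 293T (4.84%).

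The rule itself ties these shares to the density of the other lists. Chromosome 19 held 151.9 silencers of 293T and LNCap per Mb, chromosome 17 held 108.0 and chromosome 21 held 56.1. Over the 22 autosomes, which share these lists, the share of isolated silencers and that density had a Spearman correlation of -0.48 and a Pearson correlation of -0.75. Chromosome 14 departed from the order: at 77.4 silencers of the other lines per Mb it had a lower share than chromosome 9, which had 78.3 per Mb and 14.5% isolated (13.6 to 15.5). Chromosomes 15 (11.5%, 10.5 to 12.5) and 22 (11.4%, 10.1 to 12.97) were likewise low for their density as counted here. Each density divides by the highest end in any list, which also counts stretches with few or no calls. The highest ends were 106877151 bp on chromosome 14, 101980901 on 15, 50793100 on 22 and 138226750 on 9. Bins of 1 Mb with at least 20 K562 silencers numbered 85, 72, 36 and 113 on these. The part of such stretches in these departures was not tested. Counted per Mb of chromosome, isolated silencers were most dense on chromosome 20 (6.72 per Mb) and least on chromosome 19 (3.48 per Mb).

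**Figure D5:**
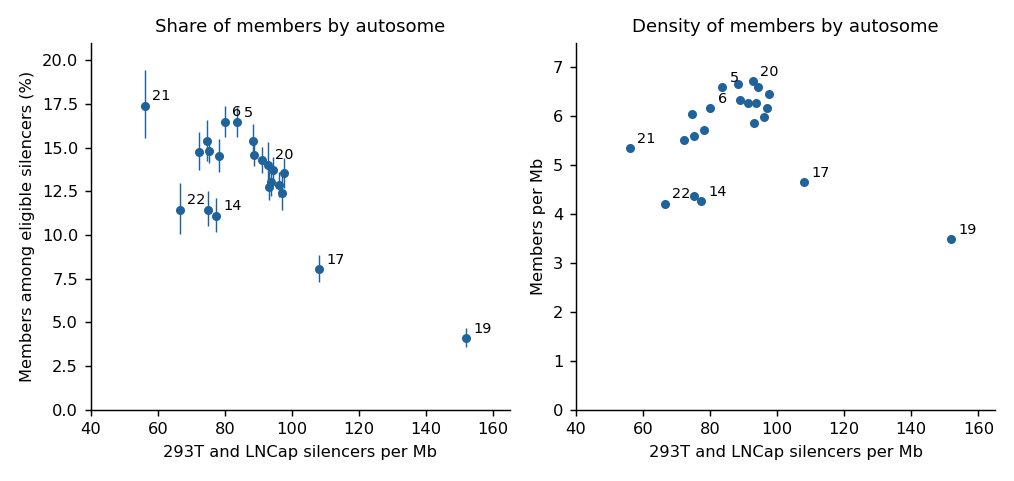
Share of K562 silencers that are isolated (left, with 95% Wilson intervals) and isolated silencers per Mb (right) on each autosome, against the number of 293T and LNCap silencers per Mb; 8 autosomes are labelled. Chromosome 19 lies far to the right at 4.10% and 3.48 per Mb, and chromosomes 14 and 22 lie below the others of like density. Mb are counted up to the highest end in any list, stretches without calls included.

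Regional differences were of the same kind at 1 Mb. Of 2757 autosomal bins with a K562 silencer inside the limits, 65 held no isolated one, and the median bin held 6. Among the 2600 bins with at least 20 K562 silencers, 45 held none, among them 8 of the 55 such bins on chromosome 19. The fullest of these, with 129 K562 silencers each, were chromosome 19 from 6 to 7 Mb (150 of LNCap and 78 of 293T) and from 14 to 15 Mb (140 and 85). At the other end, 3 bins were isolated for the greater part: chromosome 13 from 78 to 79 Mb (14 of 21), chromosome 1 from 216 to 217 Mb (18 of 34) and chromosome 2 from 12 to 13 Mb (17 of 33). The most isolated silencers, 20 each, fell in 2 bins of chromosome 18. These were from 13 to 14 Mb (20 of 57 K562 silencers, with 55 of LNCap and 53 of 293T) and from 10 to 11 Mb (20 of 69, with 43 and 41). Bins were named after their values were seen. In the outermost Mb of the autosomes 11.0% (9.64 to 12.6) of K562 silencers were isolated, against 13.5% (13.3 to 13.7) elsewhere.

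The 6 isolated silencers named for the highest finite scores were 50 bp wide, as were 63.4% of all isolated silencers, and had called silencers of each list around them. The highest, 7.6, was on chromosome 9 (33093301 to 33093351), 11865 bp from LNCap and 14700 bp from 293T. Next came 7.3 on chromosome 14 (19924251 to 19924301), 10446 bp from LNCap, and 6.8 on chromosome 9 (96098266 to 96098316), 29601 bp from LNCap and 43893 bp from 293T. A score of 6.8 was also given to a silencer on chromosome 10 (19504776 to 19504826), 10675 bp from 293T. The last of the 6 were on chromosome 6 (79042701 to 79042751, score 6.7) and chromosome 12 (11887555 to 11887605, 1 of 3 with a score of 6.0). The tie at 6.0 was settled by distance, and at least 1 of the others tied was over 100 bp wide. Within 1 Mb on each side these 6 had 63 to 118 other K562 silencers, 67 to 125 of LNCap and 57 to 108 of 293T. For comparison, K562 silencers inside the chromosome and width limits had a median density over the autosomes of 43.3 per Mb. They were thus isolated at the scale of 10 kb only, and the highest score of the remaining K562 silencers was 11.8.

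Of the 6 silencers farthest from the other lines, 4 had at most 3 other K562, 1 LNCap and 0 293T silencers within 1 Mb on each side. They were chosen by distance, and all 4 lay over 1 Mb from 293T, so the count of 0 follows from the choice. The same holds for LNCap at the 2 on chromosome 15. The 2 farthest, on chromosome 15 (31167901 to 31167951, score 2.5, and 31019750 to 31019950, score 2.4), were 1169550 and 1021399 bp from the nearest 293T silencer and 1790900 and 1938901 bp from the nearest LNCap one. From 29 to 33 Mb on that chromosome the lists held 15 K562, 8 293T and 1 LNCap silencers, or 3.75, 2 and 0.25 per Mb, against 39.0, 34.6 and 40.5 per Mb over the whole chromosome. Of the 15, 11 were isolated: 5 lay beyond 100 kb, and 6 were the chain at 32979551 to 32984001, whose nearest other silencer was 14823 bp away. The window was drawn around the farthest silencers, where the other lists are sparse, so a high isolated share follows from the rule. A pair on chromosome 18 (17357900 to 17358000, score 2.1, and 17324050 to 17324300, score 2.5) lay 771600 and 737750 bp from LNCap, near the centromere. The remaining 2 of the 6 were on chromosome 15 (32340900 to 32341001, score 2.8, at 605650 bp) and at the start of chromosome 1 (109001 to 109201, score 2.2, at 489900 bp). These had more silencers around them, with 27 K562, 28 LNCap and 35 293T within 1 Mb of the first and 24, 15 and 18 of the second. How uniquely reads map in these regions was not tested.

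All 66 isolated silencers beyond 100 kb started on a 50 bp grid. Their scores ran from 2.0 to 3.6 with a median of 2.2, the median of all isolated silencers. A start is on the grid when it is 0 or 1 modulo 50; none of the 66 was off it, which allows a share of up to 4.55% (3 counts of 66; the Wilson interval reaches 5.5%), whereas 49.1% (48.4 to 49.9) of all isolated and 50.6% (50.3 to 50.9) of remaining silencers were off it. Between 50 and 100 kb the share off the grid was 34.0% (27.9 to 40.6) of 209. The largest groups of the 66 were 8 on chromosome 12 between 35053851 and 37066650, 7 on chromosome 10 between 40734451 and 41591800, and 5 each on chromosomes 8, 15 and 18. By textbook positions of human centromeres, those on chromosomes 8, 10, 12 and 18 lie at or beside the centromere. The distance of 100 kb was set after the values were seen.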

How the data were processed

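The analysis used the authors' 3 deposited lists, 1 per line. Each gives a region's position and its activity, per the file headers. Activity is a score deposited by the authors with 1 decimal and a lowest value of 2. Bowtie2, SAMtools and hg38 are named in the submitters' processing notes without versions; the sources used here do not name the region caller, its input or threshold, or how libraries were merged. Broken lines, unknown chromosomes and widths over 5000 bp were left out (58 lines of 293T, 12 of K562, 24 of LNCap). Positions are those of the lists, which do not say if a start is 0- or 1-based. Depth is unknown. Distances run from edge to edge, and other lines' silencers of any width counted. Chromosome lengths are the highest end in any list. Intervals of differences are Newcombe's, from Wilson intervals.

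The members and lists were chosen with earlier results of these data known. Named are the 6 highest finite scores, the 6 farthest, 3 on each side of the limit, the 5 chains with most members (equal sizes ranked by median score, with ties in both kept), and the 3 highest and lowest autosomes. Genes, sequences, motifs and base composition were not analysed here, since only mouse reference tables were at hand. Distances and membership were tested on simulated data. Alternatives changed the distance, the score minimum, the width, the merging of neighbours, the start grid, infinite scores and the reference set. Scripts ran in Python 3.11.15 (pandas 2.3.3, numpy 2.4.6, scipy 1.17.1); figures were drawn with matplotlib 3.10.9.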

Additional observations from a re-analysis of the deposited data

Results flagged for a closer look

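Signals of the same kind lay outside the chromosome and width limits. On chromosome X, 861 of 5523 K562 silencers of 50 to 300 bp (15.6%, 95% Wilson interval 14.7 to 16.6) had no 293T or LNCap silencer within 10 kb. Among autosomal K562 silencers over 300 bp wide, 201 of 2973 (6.76%, 5.91 to 7.72) met the same distance limit.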

How the results depend on the processing

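The number of isolated silencers follows the settings: 36965 with a distance of 5 kb, 4286 with 20 kb, 56482 when only 293T and LNCap silencers scoring at least 2.5 count as neighbours, 4246 from K562 silencers of that score, 10718 for 50 bp silencers, and 15472 after merging K562 silencers within 500 bp. The excess of scores of 2.0 or 2.1 kept its direction in each alternative run, but shrank from 5.11 to 2.79 points against remaining silencers that overlap no other line, 1.64 points against those over 500 bp away and 0.949 points against those over 5 kb away, the last 2 sets being chosen after seeing the data. The share of 50 bp silencers was 62.4% at 20 kb. The share with another K562 silencer within 10 kb was 59.7% at 5 kb, 47.0% at 20 kb, 41.9% after merging and 22.8% among scores of at least 2.5, each below that of the remaining silencers. On chromosome 19 the isolated share was 15.9% at 5 kb, 0.624% at 20 kb and 26.5% with stricter other lists; on chromosome 21 it was 33.7%, 5.24% and 53.6%. Gene context and base composition under other windows were not run. No paired analysis was possible because each line has 1 list, with no values per library. Without depth or values per library, missed calls in 293T and LNCap cannot be bounded.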

Other observations

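Isolated silencers beyond 100 kb were unevenly spread over the 3 lists. There were 66 of 16902 isolated silencers in K562, 16 of 17312 in LNCap and 57 of 22739 in 293T, each by the same rule applied to that list. Few of the LNCap and 293T ones started off the 50 bp grid either, 3 of 16 (18.8%, 95% Wilson interval 6.59 to 43.0) and 3 of 57 (5.26%, 1.81 to 14.4), against 52.3% and 39.0% of all isolated silencers of those lists. Isolated K562 silencers with no other K562 silencer within 100 kb were off the grid in 20.0% (13.5 to 28.6) of 105 cases, in 33.9% (22.9 to 47.0) of the 56 of these up to 50 kb from another line, and the remaining K562 silencers with none within 100 kb in 42.2% (34.2 to 50.7) of 135.

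The direction of the score difference was common to the lists, but at high scores it was very small in 293T. For scores of 3 and above, isolated minus remaining was -3.06 points in K562, -3.88 in LNCap and -0.376 in 293T. In 293T the 2 shares were 13.9% (13.5 to 14.4) and 14.3% (14.1 to 14.5), with overlapping intervals. Scores of 2.0 or 2.1 were more frequent among isolated than among remaining silencers by 6.49 points in LNCap (43.2% and 36.7%) and by 1.79 points in 293T (35.4% and 33.7%), beside 5.11 points in K562. The share with a silencer of the same list within 10 kb was lower by 18.8 points in LNCap (54.7% and 73.5%) and by 9.22 points in 293T (60.2% and 69.5%), beside 20.0 points in K562. Whether these differences differ between lists was not tested.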
